A study of Mus musculus with 4 samples.

Results

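Collagen chains are modified and folded by enzymes and chaperones before they leave the cell, and fibrillar ones are trimmed outside it. From this machinery, 10 genes were followed in muscle progenitor cells of young and aged mice. The genes were taken from a written list (P4ha1, P4ha2, P4ha3, Plod1, Plod2, Plod3, Serpinh1, Pcolce, Crtap and Bmp1). Of these, 9 were matched by gene symbol to a probe set among 19505 genes on the array, and Plod3 was not analysed here. Each of the 9 genes had a single probe set. The cells came from muscle of C57Bl/6 mice aged 2 years (2 arrays) or 5 weeks (2 arrays), and no other genotype or treatment is named for either age. They were freed with collagenase and sorted by flow cytometry for CD29, which is integrin beta 1, and ITGA7, which is integrin alpha 7. Whether the replicate arrays came from separate animals or from pools is not stated in the labels. The p-values therefore measure only the spread between these samples, which may be technical.

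In the endoplasmic reticulum, prolyl 4-hydroxylases modify prolines of the new chain so that the triple helix is stable at body temperature. Lysyl hydroxylases modify lysines that later carry sugars and cross-links, and a complex built around Crtap hydroxylates single prolines at another position. The chaperone encoded by Serpinh1, also called HSP47, binds the folded procollagen and accompanies it out of the endoplasmic reticulum. Outside the cell, the protease encoded by Bmp1 removes the C-terminal propeptide of fibrillar procollagens, and the protein encoded by Pcolce speeds this cleavage. In muscle most fibrillar collagen is made by fibroblast-like cells, while satellite cells, the muscle stem cells, also contribute to their own matrix.

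Promoter sequences are shown for Plod1 and Serpinh1, which were lower in aged cells at an unadjusted p under 0.05, and for P4ha1, which was not. They are the 250 bases before the RefSeq gene start in the assembly GRCm38.p6, written 5′ to 3′ on the strand of the gene. Plod1 lies at chr4:147936777-147937026 on the minus strand, Serpinh1 at chr7:99353240-99353489 on the minus strand and P4ha1 at chr10:59323046-59323295 on the plus strand. Capitals mark the hypoxia response core, ACGTG or GCGTG on either strand, which is the letter string bound by hypoxia-inducible factors.
Plod1: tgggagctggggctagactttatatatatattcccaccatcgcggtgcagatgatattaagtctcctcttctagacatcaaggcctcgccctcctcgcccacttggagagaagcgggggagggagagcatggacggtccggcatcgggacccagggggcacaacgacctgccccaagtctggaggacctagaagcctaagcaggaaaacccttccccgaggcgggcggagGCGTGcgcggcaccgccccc
Serpinh1: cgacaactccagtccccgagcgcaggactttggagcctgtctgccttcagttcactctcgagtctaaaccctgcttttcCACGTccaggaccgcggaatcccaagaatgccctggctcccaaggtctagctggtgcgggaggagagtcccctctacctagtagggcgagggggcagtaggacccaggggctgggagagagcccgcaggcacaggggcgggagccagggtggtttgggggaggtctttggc
P4ha1: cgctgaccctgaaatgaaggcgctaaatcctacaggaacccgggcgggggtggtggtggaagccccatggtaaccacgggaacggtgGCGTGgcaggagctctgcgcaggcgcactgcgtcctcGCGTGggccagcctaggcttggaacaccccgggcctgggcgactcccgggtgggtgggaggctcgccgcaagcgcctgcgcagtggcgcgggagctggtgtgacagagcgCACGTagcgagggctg
RefSeq promoters were matched for 8 of the 10 genes, without Plod2 and Bmp1, and 7 of these 8 held the hypoxia response core at least 1 time. The GC content of the 8 windows was 53.6 to 70.0%, and no share given here was adjusted for it. The core occurred in 38.6% of all 32851 promoter windows of this length. It was found at 3 places in each of P4ha1, P4ha2 and Crtap and at 4 in Plod3, and 3 or more places were held by 6.6% of all windows. It was found at 1 place in each of Plod1, Serpinh1 and Pcolce, and P4ha3 held no match. A GC box, GGGCGG on either strand, was found in 6 of the 8 promoters and in 32.7% of all windows. A CCAAT box on either strand was found in 1 of the 8, that of Plod3, and in 33.8% of all windows. These matches describe letters and were not measured as binding.

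Expression values are the deposited log2 probe set levels, and every difference is aged minus young in these log2 units. Their spread from 2.08 to 19.4 is wide for a scan, and whether the authors rescaled them is not stated, so differences are not turned into folds. Pearson's r across genes, a description since genes are not replicates, reached 0.978 for the aged pair of arrays, 0.975 for the young pair and 0.965 to 0.975 for pairs of different age. The array carries control probe sets for exons and introns of housekeeping genes. How far exon controls stood above intron controls, as the area under the curve and called control separation here, was 0.792 and 0.819 in aged against 0.849 and 0.823 in young arrays, so it was lower in both aged arrays. The intron controls, whose median was 6.25 to 6.76, serve as a mark of background.

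Plod2, Serpinh1 and Plod1 had the largest negative differences among the 9 measured genes, and these 3 were lower in aged cells at an unadjusted p under 0.05 in limma. Pcolce followed, with aged arrays below young arrays but a p just above that mark. P4ha2, P4ha3 and Crtap had negative differences within their spread, and Bmp1 and P4ha1 had small positive ones. In all, 7 of 9 differences were negative, beside 50.2% of the 19572 probe sets tested, and their median was -0.60, beside -0.001 for all of them. The count of 3 of 9 stands beside a background of 3.99% of probe sets lower at an unadjusted p under 0.05, and none of the 9 was higher at that mark, beside 3.36%. Both aged arrays lay below both young arrays for 4 of 9 genes (Plod1, Plod2, Serpinh1 and Pcolce), beside 18.4%, and above them for none, beside 18.2%. No gene passed after Benjamini-Hochberg adjustment: limma called 0 of 19572 probe sets, while 1438 (7.35%) had an unadjusted p under 0.05. The adjusted p of the 9 genes ran from 0.518 to 0.978.

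**Figure D1:**
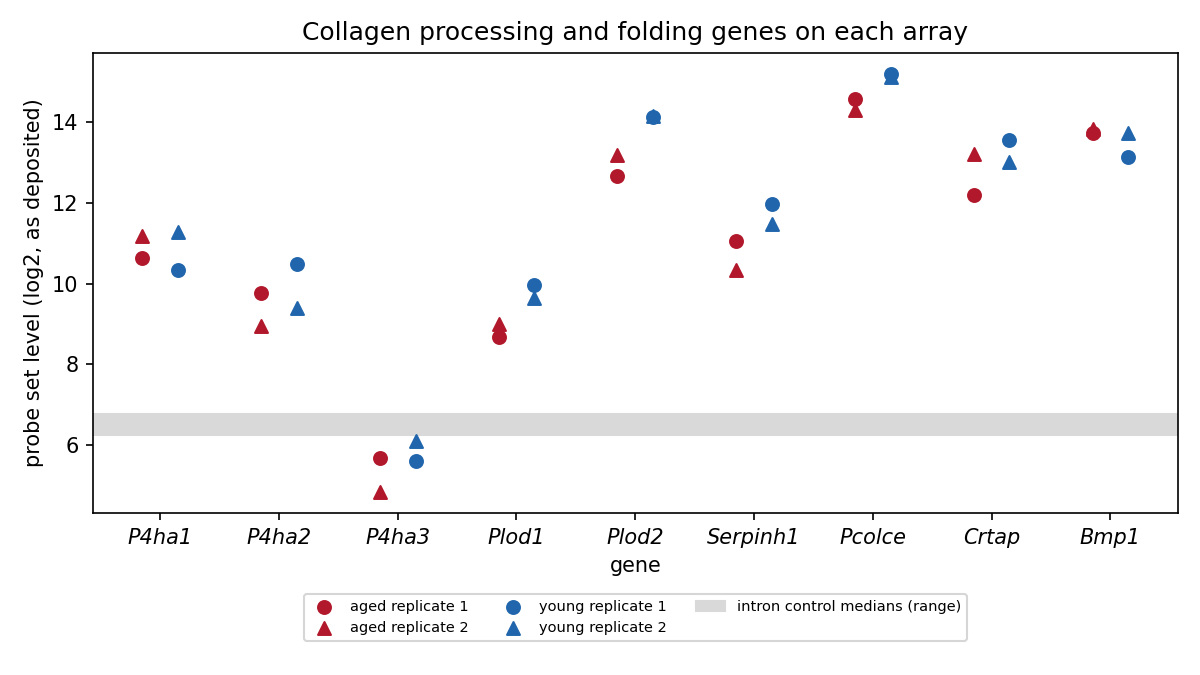
Levels of the 9 measured genes (log2, as deposited) on each array, aged in red and young in blue, with replicate 1 as circles and replicate 2 as triangles; the grey band is the range of the intron control medians. Aged points lie below young points without overlap for Plod1, Plod2, Serpinh1 and Pcolce, and all 4 P4ha3 points lie under the band.

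The lysyl hydroxylases were the most uniform pair. Plod2, which modifies the lysines of the chain ends that form the stable cross-links of stiff tissue, was read at 12.67 and 13.20 in aged and at 14.13 and 14.17 in young arrays. The young arrays nearly coincided and both aged arrays were clearly below them, with means of 12.93 ± 0.38 (SD, n = 2) and 14.15 ± 0.03 (SD, n = 2). The difference was -1.21 ± 0.32 (SE), with a limma unadjusted p of 0.00987 and an adjusted p of 0.518. Without aged replicate 1 it was -0.95 and missed the unadjusted mark (limma p of 0.0558).

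Plod1, which modifies lysines within the triple helix, was read at 8.69 and 9.00 in aged and at 9.98 and 9.65 in young arrays. The aged arrays were again both lower, and the gap between the ages was wider than that between replicates. The difference was -0.97 ± 0.31 (SE), with a limma unadjusted p of 0.0216 and an adjusted p of 0.601. Leaving out aged replicate 1 gave -0.81 (limma p of 0.0996) and leaving out young replicate 1 gave -0.80 (limma p of 0.100), which missed the unadjusted mark in both cases. Centred on their own means, the profiles of Plod1 and Plod2 over the 4 arrays differed by a root mean square of 0.19 log2 units, the smallest distance between any 2 of the 9 genes. All 9 profiles come from the same arrays, so such distances are a description.

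Serpinh1, the collagen chaperone gene, was read at 11.07 and 10.33 in aged and at 11.98 and 11.48 in young arrays. Both aged readings lay below both young readings, with aged replicate 2 the lowest. The difference was -1.02 ± 0.38 (SE), with a limma unadjusted p of 0.0384 and an adjusted p of 0.654. With aged replicate 2 left out it was -0.66 (limma p of 0.187), and with young replicate 1 left out -0.77 (limma p of 0.151). A second quantile normalization gave -0.93 with a limma p of 0.0591, and a fit over every entry of the table gave a limma p of 0.0550. Its profile was nearest to that of Pcolce, at a root mean square of 0.27 log2 units.

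The ages overlapped for all 3 prolyl 4-hydroxylase alpha subunits, which carry the catalytic site, so neither a shared nor an opposed direction is shown. P4ha1, the main form in most tissues, was read at 10.64 and 11.19 in aged and at 10.35 and 11.27 in young arrays. The young readings enclosed the aged ones, and the difference was 0.11 ± 0.42 (SE). Its 95% interval ran from -0.94 to 1.15, so sizable differences in either direction remain possible, and the sign turned negative when aged replicate 2 (-0.17) or young replicate 1 (-0.36) was left out.

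P4ha2, a form known from cartilage and bone cells, was read at 9.77 and 8.95 in aged and at 10.50 and 9.40 in young arrays. Replicate 1 was higher than replicate 2 at both ages and the ages overlapped, with a difference of -0.59 ± 0.49 (SE). That difference was -1.14 without young replicate 2 but -0.04 without young replicate 1. The centred profiles of P4ha1 and P4ha2 were the farthest apart of any pair of the 9 genes, at a root mean square of 0.93 log2 units.

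P4ha3, a minor form, was read at 5.68 and 4.83 in aged and at 5.61 and 6.11 in young arrays. All 4 readings were below the intron control median of their array, so its difference of -0.60 ± 0.40 (SE) is one between readings near background. The partner protein of all 3 alpha subunits is the disulfide isomerase encoded by P4hb, named here for that role and not by its rank in a list. P4hb was read at 14.95 and 15.43 in aged and at 15.49 and 15.49 in young arrays. Its difference was -0.30 ± 0.31 (SE), within the error of the fit.

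Crtap, the scaffold of the prolyl 3-hydroxylase complex, was read at 12.21 and 13.23 in aged and at 13.58 and 13.03 in young arrays. Only aged replicate 1 lay below both young arrays. The difference was -0.58 ± 0.44 (SE), which became -0.08 with aged replicate 1 left out and -1.09 with aged replicate 2 left out. P3h1, the enzyme of this complex, was read at 6.65 and 7.59 in aged and at 8.59 and 8.67 in young arrays. Both aged readings were lower, and that of aged replicate 1 was below the intron control median. The difference was -1.51 ± 0.39 (SE; limma unadjusted p of 0.00915, adjusted p of 0.513). Ppib, the cyclophilin of the complex and again named for its role, differed by -0.70 ± 0.38 (SE). Its aged readings of 14.63 and 15.48 lay below the young ones of 15.70 and 15.81.

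The genes that act on the propeptides outside the cell differed in sign. Pcolce, the enhancer of C-terminal cleavage, was read at 14.59 and 14.31 in aged and at 15.20 and 15.13 in young arrays. The aged readings were both lower, with means of 14.45 ± 0.20 (SD, n = 2) and 15.17 ± 0.05 (SD, n = 2). The difference of -0.72 ± 0.29 (SE) missed the unadjusted mark in limma (p of 0.0513, adjusted p of 0.681), and it passed it after median centring (-0.75, limma p of 0.0422) and with a trend in the variance prior (limma p of 0.0226). It ranged from -0.86 to -0.58 with any single array left out, the narrowest such range of the 9 genes.

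Bmp1, the protease itself, was read at 13.74 and 13.83 in aged and at 13.14 and 13.75 in young arrays. Young replicate 1 was lower than the other 3 readings, which lay close together. The difference was 0.34 ± 0.33 (SE) and was 0.04 without young replicate 1. Its profile was nearest to that of P4ha1, the other gene with a positive difference, at a root mean square of 0.23 log2 units.

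**Figure D2:**
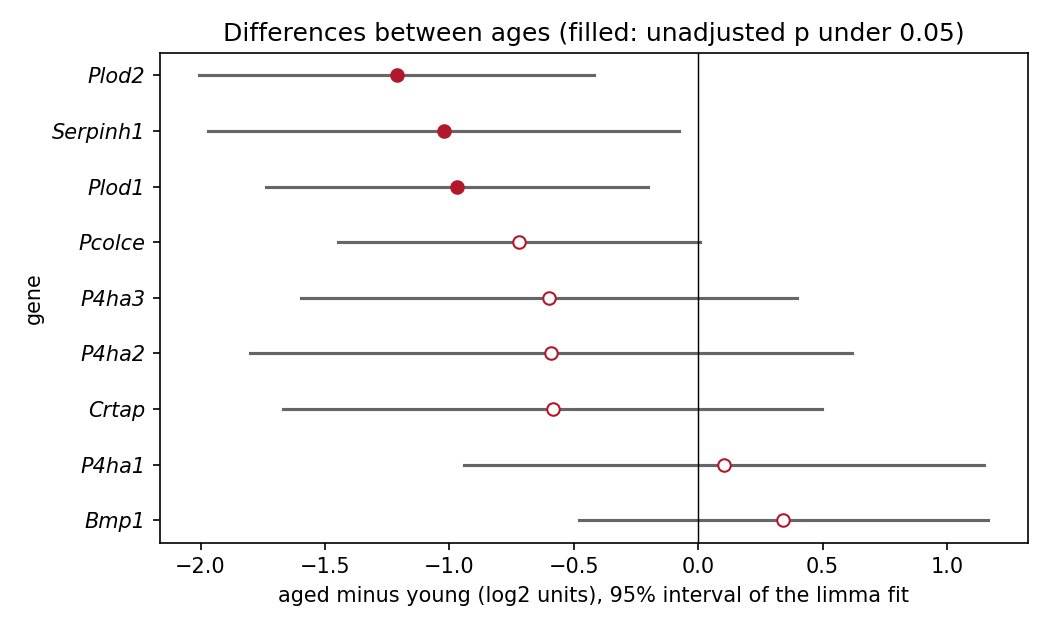
Aged minus young differences of the 9 genes in log2 units with the 95% interval of the limma fit; filled points have an unadjusted p under 0.05. The intervals of Plod2, Serpinh1 and Plod1 lie below 0, and that of Pcolce ends at 0.01.

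The 9 genes followed more than one pattern over the 4 arrays. Aged replicate 1 was the lowest of the 4 arrays for Plod1, Plod2 and Crtap. Aged replicate 2 was the lowest for Serpinh1, Pcolce, P4ha2 and P4ha3. The genes at the mark depended on the arrays used. Without aged replicate 1 the differences were -1.39 for Serpinh1, -0.95 for Plod2 and -0.81 for Plod1. Without young replicate 1 they were -0.77, -1.23 and -0.80. Such fits leave 1 array in a group, and the share of all probe sets at the mark moved between them. The count of the 9 genes at the mark is therefore not compared between them. With control separation as a covariate, which leaves 1 residual degree of freedom, the count was 1 and the gene was P4ha3 (-1.40, limma p of 0.0339), which was read under background. Plod2, Serpinh1 and Plod1 were then at -0.92, -1.17 and -0.59. The median of the 9 genes was -0.59 with the covariate, and it was -0.66 over the 8 genes read above the intron controls on any array.

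**Figure D3:**
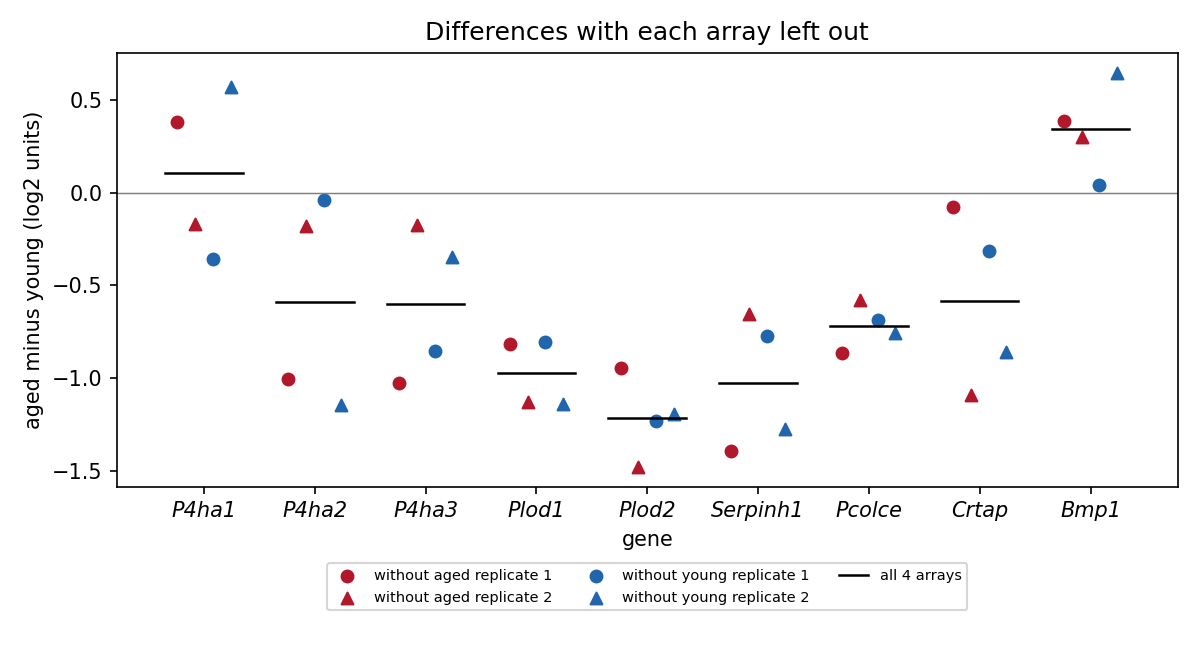
Aged minus young differences of the 9 genes in log2 units with each array left out in turn (symbols) and with all 4 arrays (black bars). The symbols of P4ha1 lie on both sides of 0, those of Plod1, Plod2, Serpinh1 and Pcolce all lie at -0.58 or lower, and those of Crtap run from -1.09 to -0.08.

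The other genes that modify or fold procollagen in the endoplasmic reticulum had a similar median. Of 14 measured genes, 12 had negative differences, beside 50.2% of all probe sets tested, and the median was -0.70. Both aged arrays lay below both young arrays for 10, beside 18.4%. Over all probe sets, 3.99% were lower and 3.36% higher at an unadjusted p under 0.05 in limma. These shares also stand beside the list counts below. Of the 14 genes, 5 reached that mark, all lower in aged cells. Beside P3h1 these were P3h2 (-1.11 ± 0.30, SE), a related prolyl 3-hydroxylase, Colgalt2 (-0.98 ± 0.30), which adds galactose to hydroxylysine, and Prdx4 (-0.97 ± 0.39), a peroxidase that feeds disulfide formation. The last of them, P3h4 (-1.33 ± 0.54), which acts with lysyl hydroxylase 1, was outside the naming rule and is named after its value was seen. Prdx4 and P3h4 lay just under the mark, with limma p of 0.0498 and 0.04996. The count of 5 dropped to 3 when either aged replicate 1 or young replicate 1 was left out, to 3 under a robust variance prior, without the dimmest 25% of probe sets or over every entry of the table, and to 1 with control separation as a covariate.

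The chains on which these enzymes act included the largest negative differences of the pathway lists. Of 11 fibrillar collagen chain genes, 9 had negative differences, their list median was -1.07, and 5 were lower in aged cells at an unadjusted p under 0.05. Col1a1 and Col1a2, the chains of type I collagen, differed by -3.22 ± 0.45 and -2.65 ± 0.46 (SE), and Col3a1, of type III collagen, by -2.10 ± 0.49. Col5a2 and Col5a1, of type V collagen, differed by -1.09 ± 0.30 and -1.07 ± 0.31, sizes like those of Plod2 and Serpinh1 (Col5a1 is named after its value was seen). The 95% interval of Col1a1, the chain with the largest difference, reached up to -2.12. The lower ends were -2.01 for Plod2, -1.97 for Serpinh1 and -1.74 for Plod1, but -2.49 for P3h1 and -2.67 for P3h4. The intervals of Col1a2 and Col3a1 reached up to -1.51 and -0.88 and overlapped that of Plod2. Whether chains and enzymes differed by unequal amounts was not tested. All these intervals come from the same arrays, so their overlap or lack of it is a description. With 2 arrays against 2, no exact permutation p can fall under 0.333, for this or any other difference here. The count of 5 chains was 4 to 6 with single arrays left out and 2 with the covariate.

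The list medians of later steps were closer to no difference, with 0.06 for other propeptide cleavage and -0.02 for the lysyl oxidases. Single genes of these steps differed more, and Pcolce (-0.72), which acts at a later step, is counted with the 9 enzymes. The cleavage median of 0.06 was the value of Mep1a, which was below the intron controls on all 4 arrays. Of 14 genes for export of procollagen from the endoplasmic reticulum, 9 had negative differences (median -0.25), and Trappc2, a subunit of a vesicle tethering complex, was the single gene at an unadjusted p under 0.05. Trappc2 was read at 9.43 and 9.60 in aged and at 10.81 and 10.88 in young arrays, a difference of -1.33 ± 0.29 (SE). The count was 2 when any array other than aged replicate 1 was left out. The median was 0.11 without young replicate 1 and 0.38 with the covariate. Of 7 other genes of propeptide cleavage, 3 were below background on all arrays. Adamts3, a protease for the N-terminal propeptide, was the single one at an unadjusted p under 0.05, with a difference of -1.44 ± 0.37 (SE) and both aged readings (6.43 and 5.60) below the intron controls. Pcolce2, the second enhancer of C-terminal cleavage, differed by 0.28 ± 0.45 (SE), with readings of 15.39 and 15.20 in aged against 14.42 and 15.61 in young arrays. Of 4 lysyl oxidase genes, which cross-link the finished fibre, none reached an unadjusted p under 0.05 in limma, and 2 differences were positive. Loxl3 had the smallest p of them and differed by -0.77 ± 0.41 (SE). Its aged readings (13.11 and 12.11) lay below its young ones (13.38 and 13.37). Lox itself differed by -0.09 ± 0.34 (SE).

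General chaperones and disulfide isomerases of the endoplasmic reticulum served as a comparison. Of 14 genes, 10 had negative differences, the median of all 14 was -0.23, and Pdia3, a disulfide isomerase for glycoproteins, was the single one at an unadjusted p under 0.05 (-0.91 ± 0.33, SE). The count was 0 when aged replicate 1 or young replicate 1 was left out, 2 for aged replicate 2 and 3 for young replicate 2. The median was 0.06 without aged replicate 1 and 0.33 with the covariate. The difference between these chaperones and the collagen enzymes was not tested.

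**Figure D4:**
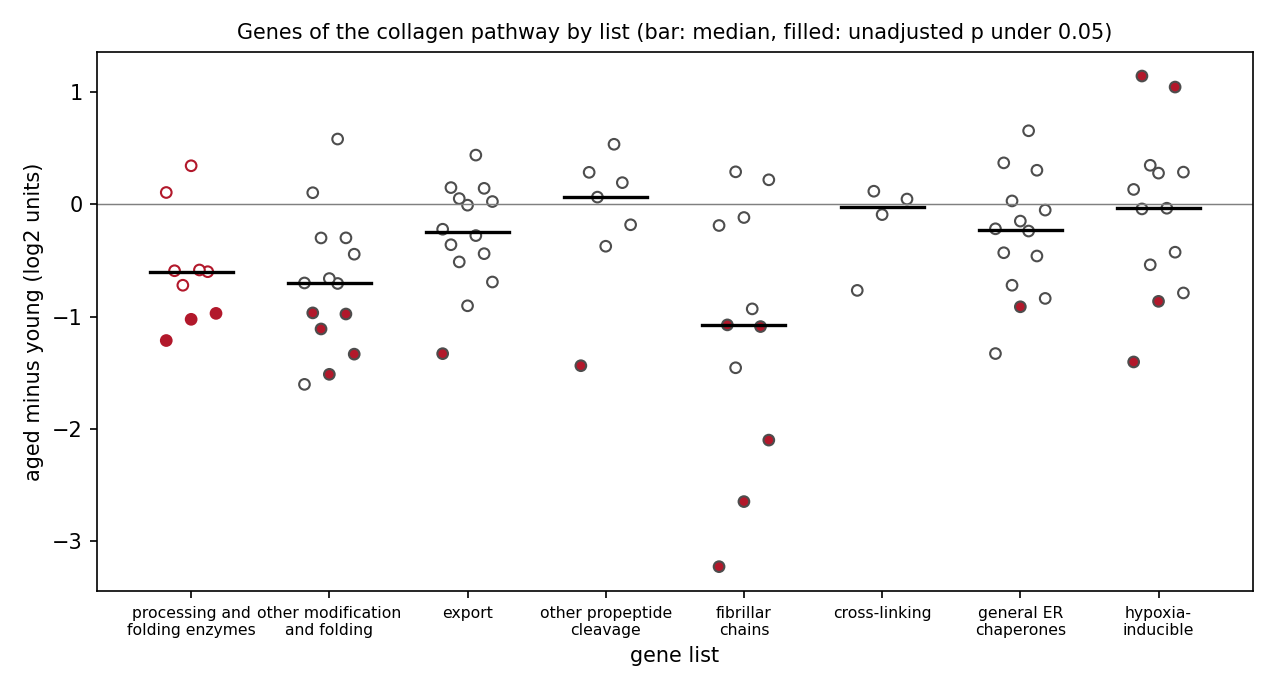
Aged minus young differences in log2 units of every measured gene of 8 lists of the collagen pathway and comparison genes; each circle is a gene, filled at an unadjusted p under 0.05, and bars are list medians. The medians of the processing and folding enzymes (-0.60), the other modification and folding genes (-0.70) and the fibrillar chains (-1.07) lie lowest.

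Itga7 and the satellite cell gene Pax7 were read above the intron controls on all 4 arrays. Markers of several other cell types were read too, and some moved with age beside the collagen enzymes. The median level was 15.71 over the fibroblast markers against 12.88 over the satellite cell and myoblast markers. Within these lists, mean levels ran from 8.52 (Thy1) to 18.09 (Dcn) and from 8.91 (Cdh15) to 15.84 (Fgfr4). Levels of different probe sets are not on a common scale of amount, so the 2 medians do not compare the cell types. The share of each cell type in the samples was not measured. In bulk RNA, fewer cells of a type and less RNA per cell cannot be told apart. Summed levels are the log2 of the sum of a list's unlogged values, so its brightest genes weigh most. They take the deposited values as plain log2, though rescaling is not excluded. Satellite cell and myoblast markers had 5 of 10 negative differences, with summed levels (log2) of 17.56 and 17.58 in aged against 17.65 and 16.97 in young arrays; Myod1 was lower at an unadjusted p under 0.05 (-1.16 ± 0.43, SE). Fibroblast markers had 7 of 8 negative differences but none at that mark in limma, with summed levels of 19.32 and 19.28 in aged against 19.29 and 19.65 in young arrays; Pdgfra and Ly6a were not analysed here. Tendon cell markers had 7 of 8 negative differences and 3 at the mark (Tnmd, Kera and Cilp2), with summed levels of 14.96 and 14.79 in aged against 16.17 and 15.77 in young arrays. Their regulators Scx and Mkx were below the intron controls on 3 of 4 arrays each. Leukocyte markers had 9 of 10 positive differences and 4 higher at the mark (Lcp1, Ptprc, Cd53 and Fcer1g). Fcer1g was below the intron controls on all 4 arrays and Cd53 on 3. The summed levels were 12.79 and 13.54 in aged against 11.00 and 9.90 in young arrays, with Lcp1 alone at 12.31 and 12.82 in aged ones. Pericyte and smooth muscle markers had 4 of 10 negative differences, with summed levels of 17.19 and 16.89 in aged against 17.42 and 16.89 in young arrays. Endothelial markers had 9 of 10 negative differences and none at the mark in limma, with summed levels of 11.89 and 10.86 in aged against 11.02 and 14.04 in young arrays, so young replicate 2 was high. These counts moved with single arrays: with young replicate 1 left out, 9 leukocyte markers and 3 pericyte and smooth muscle markers were higher and 7 endothelial markers lower at the mark. In that case 2 satellite cell markers were higher and none lower at the mark. Myod1 missed the mark when any array other than aged replicate 2 was left out. Leukocyte markers higher at the mark numbered 1 with aged replicate 2 left out and 2 with young replicate 2 left out, and in the latter case 3 satellite cell markers, Myod1 not among them, were lower. The part of any of these cell types in the differences of the collagen enzymes was not tested.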

How the data were processed

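RNA of sorted muscle progenitor cells was hybridised to a whole-transcript Affymetrix array, 2 arrays per age. The authors deposited log2 probe set levels; per the submitters' processing notes they were made with RMA and the Transcriptome Analysis Console, with versions not given. No raw scans were used here, and the genome build of the array is not given in the sources used here. Of 28846 entries, 19572 had exactly 1 gene symbol in the platform annotation, all with a gene identifier in the RefSeq table of GRCm38.p6, and none had several; 2634 unnamed transcript clusters and 6640 controls were not tested. Where a gene had several probe sets, the one with the highest mean was used.

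The ages were compared in R 4.3.3 with a linear model per probe set in limma 3.58.1 (eBayes, two-sided, age alone in the model, no filter on low levels), and p-values were adjusted by Benjamini-Hochberg over all 19572 probe sets at 0.05. Errors are standard errors and 95% intervals of this fit, or SDs over 2 arrays. The code was tested on simulated data with known differences. The number of arrays limits the precision.

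The genes and lists were chosen with earlier results of these data known, so no p-value is given for a list. All 10 genes are named, with up to 4 genes of smallest p from each other list, and markers by the same rule. Alternatives were median centring, another quantile normalization, dropping the dimmest 25%, variance priors with a trend or robust, the replicate block, each array left out, every entry of the table, averaged probe sets, the separation of exon from intron controls as a covariate and a required difference of 1 log2 unit. Leaving out genes read under background was added after seeing the data.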

Additional observations from a re-analysis of the deposited data

How the results depend on the processing

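Limma called 0 probe sets at the adjusted threshold; the count was 2 with the replicate block and 0 to 1 with single arrays left out. The count of 3 collagen enzymes at an unadjusted p under 0.05 was 1 to 3 with single arrays left out and 1 with control separation as a covariate, which leaves 1 residual degree of freedom. The median of the 9 genes, -0.60, was -0.86 to -0.58 with single arrays left out. The sign of P4ha1 (0.11) was turned by leaving out arrays (-0.36 to 0.57) and by the covariate (-0.10), and that of Crtap (-0.58) by the covariate (0.33); the cause was not tested. Plod1, Plod2, Serpinh1, Pcolce, P4ha2 and P4ha3 stayed negative and Bmp1 positive in all 13 alternatives that gave a difference. Replicate numbers did not pair the arrays by their deviations from the group means (correlation of -0.05 across genes), and the replicate block left 3 of the 9 genes at an unadjusted p under 0.05, as without it. Among single genes and counts of the other lists, 672 values under an alternative kept their side of the mark or stayed within 1.5 times, 74 no longer passed the unadjusted mark, 4 newly passed it and 52 counts moved further. P4ha3 was read under the intron controls, so the size of its difference is uncertain.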

Other observations

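P4ha1, P4ha2 and Plod2 are known as targets of hypoxia-inducible factors, and 13 hypoxia-inducible genes were read in the same comparison. They did not share a direction: 7 differences were negative, the median was -0.03, and at an unadjusted p under 0.05 in limma 2 genes were higher and 2 lower in aged cells. Ndrg1, a stress-responsive gene, was read at 15.37 and 14.81 in aged and at 14.31 and 13.78 in young arrays, a difference of 1.04 ± 0.36 (SE). Adm, encoding the vessel-widening peptide adrenomedullin, was read at 14.49 and 14.45 in aged and at 12.72 and 13.94 in young arrays, a difference of 1.14 ± 0.45 that was 0.53 without young replicate 1. Pdk1, a kinase that holds back pyruvate oxidation, differed by -1.40 ± 0.39. Its aged readings (5.52 and 4.91) and that of young replicate 2 (6.27) were below the intron controls. The glycolytic gene Pgk1 differed by -0.86 ± 0.29, with both aged readings below them too. The count of 2 higher genes was 0 without aged replicate 1 and with the covariate, and 1 with any other single array left out; the count of 2 lower genes was 0 without aged replicate 2 or young replicate 1 and 1 without young replicate 2.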
